A study of Mus musculus with 82 samples.

Results

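Transfer RNA genes are the short genes whose transcripts carry amino acids to the ribosome, and 386 of them lie on mouse chromosomes 1 to 19 in the GRCm38.p6 gene table used here. They were chosen by type (tRNA) and symbol (starting n-T), from 46714 genes on those chromosomes and 430 tRNA genes in the whole table. The members lie on 18 chromosomes at 196 loci. A cluster was defined as 2 or more tRNA genes joined at gaps of up to 5 kb, which gave 76 clusters with 266 genes and 120 single genes. The letter after n-T in a symbol names the amino acid and the next 3 letters name the anticodon, so that n-TLaag4 is a leucine tRNA gene with anticodon AAG. The symbol n-Tcgca44, with a small letter, was counted with cysteine.

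The study mapped Adnp, a DNA-binding protein with zinc fingers and a homeodomain, and HP1γ, a heterochromatin protein encoded by Cbx3, by ChIP-seq in untreated mouse embryonic stem cells of a 129 and C57BL/6 hybrid background, kept in 2i medium with LIF. One list holds 15026 peaks and belongs to 3 replicates in which Adnp itself carried the FlagAvi tag, captured on streptavidin, in otherwise wild-type cells. The other holds 2047 HP1γ peaks without the Adnp motif. It belongs to 3 replicates of Cbx3 FlagAvi cells with Adnp knocked out and 3 replicates of Cbx3 FlagAvi cells with Adnp present. Every ChIP group thus carries a tagged allele, and the genotype in which an HP1γ peak was seen is not known here, although the peak names point to the knockout. Each list is pooled over replicates, so no value below has an error between replicates, no test between samples could be made, and the depth is unknown. The lists hold no expression values, so the identity of the cells was not checked against marker genes. Shares carry 95% Wilson intervals, which cover counting error only and treat genes as independent, although clustered genes share peaks.

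tRNA genes are transcribed by RNA polymerase III. Their promoter lies inside the gene, in the A box and the B box, which are bound by the factor TFIIIC, and TFIIIB then recruits the polymerase. Several genes usually encode tRNAs with the same anticodon, and many of the genes lie in clusters. Adnp forms the ChAHP complex with the remodeller Chd4 and HP1 proteins.

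The sequences show what an Adnp peak at a tRNA gene covers and where the internal promoter lies. The first is the promoter window of Polr3e, which encodes a subunit of RNA polymerase III, from RefSeq on GRCm38.p6. It spans chr7:120917528-120917827 on the plus strand, from 250 bases before the start of the gene, and it holds 71 of the 82 bases of the leucine tRNA gene n-TLaag4 (capitals). An Adnp peak at chr7:120917424-120917815 covers the whole tRNA gene and 288 of the 300 bases of the window.
Polr3e window: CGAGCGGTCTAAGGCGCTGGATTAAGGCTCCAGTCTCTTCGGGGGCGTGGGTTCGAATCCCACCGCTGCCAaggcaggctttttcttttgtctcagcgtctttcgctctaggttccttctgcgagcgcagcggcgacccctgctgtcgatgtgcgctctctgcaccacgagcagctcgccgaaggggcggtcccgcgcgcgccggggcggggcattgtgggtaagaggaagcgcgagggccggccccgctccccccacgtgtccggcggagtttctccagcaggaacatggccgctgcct

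The part of n-TLaag4 in that window is set beside the 4 members that lie whole in a RefSeq promoter window of a neighbouring gene. Capitals mark matches to GGTTCNA, the first letters of the B box as used here, searched on both strands as the only motif. The genes are written in the direction in which the motif reads.
n-TLaag4: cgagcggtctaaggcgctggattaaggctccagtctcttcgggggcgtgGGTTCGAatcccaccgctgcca
n-TTagt9: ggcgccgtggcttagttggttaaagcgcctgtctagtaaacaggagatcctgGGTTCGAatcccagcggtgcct
n-TRtcg5: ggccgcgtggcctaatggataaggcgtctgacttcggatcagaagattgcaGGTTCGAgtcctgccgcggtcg
n-TVcac9: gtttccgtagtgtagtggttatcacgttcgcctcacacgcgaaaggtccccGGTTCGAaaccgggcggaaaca
n-TAagc16: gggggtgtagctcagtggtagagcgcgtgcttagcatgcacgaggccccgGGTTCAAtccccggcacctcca

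The letters were chosen with these sequences in view, so that each of the 5 holds 1 match is a description of where the B box lies and not a result. Of all 32817 listed promoter windows, 9.73% held at least 1 match on either strand. The threonine gene n-TTagt9 lies at chr7:35234770-35234843 on the minus strand and the arginine gene n-TRtcg5 at chr7:79466419-79466491 on the plus strand. The valine gene n-TVcac9 lies at chr13:23446142-23446214 on the minus strand and the alanine gene n-TAagc16 at chr13:21222586-21222657 on the plus strand. The nearest Adnp peaks to these 4 genes were 31743 bp, 23280 bp, 22368 bp and 46439 bp away. The sequences of the other members were not used here.

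The first comparison asked how many tRNA genes carry an Adnp peak. An Adnp peak overlapped 18 of the 386 tRNA genes by at least 1 bp, or 4.66% (95% Wilson interval 2.97% to 7.25%), where any part of 12.2% of all genes, most of them far longer, was overlapped. Within 1 kb of a peak lay 39 tRNA genes, 10.1% (7.48% to 13.5%), against 14.2% of all genes. Within 5 kb lay 85, or 22% (18.2% to 26.4%), against 20.1% of all genes. These shares of all genes cannot be read directly against the members, because the median gene of the table is 6310 bp long and the median tRNA gene 72 bp.

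Genes of like length had lower shares. Overlap with an Adnp peak was seen for 0.325% of 924 snRNA genes (0.11% to 0.95%), 0.235% of 1276 snoRNA genes (0.08% to 0.689%) and 0.352% of 1136 miRNA genes (0.137% to 0.902%). The 1 kb shares of these classes were 2.92%, 1.57% and 2.46%. The 5S rRNA genes, which RNA polymerase III also transcribes, had no overlap among 64 genes, and 1 gene lay within 1 kb. The count of 0 allows a share of up to 4.69% (3 counts of the total, the limit used here for a count of 0). Many of the 64 lie in an array at chr8:123538784-123622046 and share nearest Adnp peaks, so they stand for fewer separate places. How reads that fit several of these copies were treated is not given. Of 31365 promoter windows of 300 bases on the same chromosomes, 1.02% overlapped an Adnp peak and 3.53% lay within 1 kb. The bases covered by Adnp peaks made up 0.267% of the 2403 Mb considered, and the bases within 1 kb of one made up 1.45%. At overlap and at 1 kb, the interval of the tRNA genes lay above the intervals of the snRNA, snoRNA and miRNA genes and of the promoter windows, and it overlapped that of the 5S rRNA genes at both distances. These are descriptions without a test, because the lists hold no samples to test over.

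**Figure D1:**
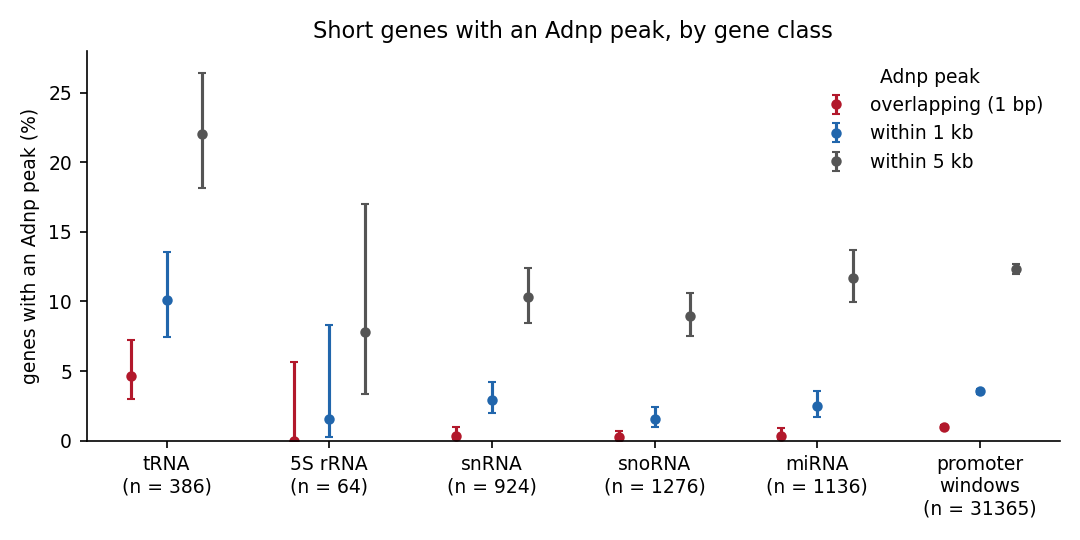
Share of genes (%) of 6 classes of short genes or windows that overlap an Adnp peak or have one within 1 kb or 5 kb, with 95% Wilson intervals as bars and the number of genes under each class. The tRNA genes stand highest at each distance, at 4.66%, 10.1% and 22%.

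Adnp peaks were densest right at the tRNA genes. Within 1 kb of a tRNA gene there were 28 peak centres in 0.634 Mb, or 44.1 per Mb. From 1 to 5 kb the density was 20.2 per Mb, from 5 to 10 kb 21.9, from 10 to 50 kb 15.7 and from 50 to 100 kb 13.5 per Mb, against 6.20 per Mb over chromosomes 1 to 19. The surroundings of tRNA genes thus held more Adnp peaks per Mb than the chromosomes as a whole even at 50 to 100 kb. Around miRNA genes the first kb held 11.7 per Mb, and the next distances held 14.7, 17.5, 16.3 and 15.5 per Mb, below the tRNA genes up to 10 kb and above them beyond. Around snoRNA genes the first kb held 6.72 per Mb, and around snRNA genes 11.3 per Mb. Around 5S rRNA genes the first kb held 1 peak centre, or 8.19 per Mb, and the next 2 distances 19.6 and 25 per Mb, from 4 and 6 peaks.

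**Figure D2:**
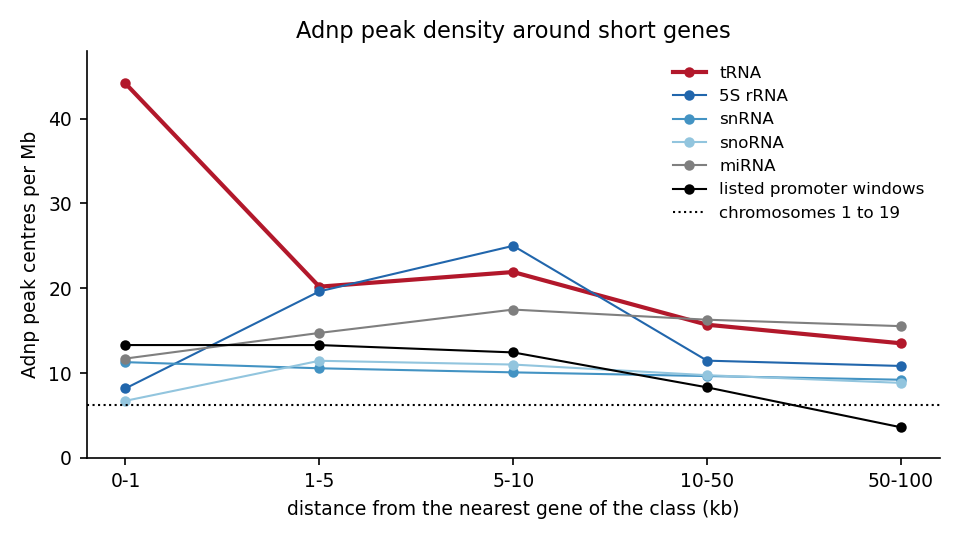
Adnp peak centres per Mb at 5 distances (kb) from the nearest gene of each class, with the density over chromosomes 1 to 19 (6.20 per Mb) as a dotted line. The line of the tRNA genes starts at 44.1 per Mb within 1 kb and is at 20.2 per Mb from 1 to 5 kb.

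The 18 overlapped genes were spread over 8 chromosomes and 12 amino acids, and most of them lay near the centre of the peak. All but 1 of the 18 lay wholly inside the peak, and the centre of the gene was a median of 60.2 bp from the centre of the peak (0 to 250.5 bp), with 15 genes within 100 bp. The arginine gene n-TRtct4 at chr11:69123482-69123568, inside Hes7, a regulator of the segmentation clock, had the highest authors' score of these genes, 40.9, and lay exactly at the centre of its peak. The glycine gene n-TGtcc1 at chr1:171064699-171064770 followed with 39.6, n-TLaag4 beside Polr3e with 37.3 and the threonine gene n-TTtgt1 at chr14:51088650-51088722 with 36.9. The leucine gene n-TLaag6 at chr11:48856974-48857055 had a score of 33.7.

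Scores of the other overlapped genes were lower. They were 24.5 at the serine gene n-TSgct1 on chromosome 1, 23.9 at the cysteine gene n-TCgca56 on chromosome 11, 22.2 at the leucine gene n-TLcag6 on chromosome 1 and 21.7 at the leucine gene n-TLtag2 on chromosome 14. The lysine gene n-TKctt24 on chromosome 7, inside Rinl, had 21.0. The leucine genes n-TLaag7 and n-TLaag5 on chromosome 13 lie in 1 peak with 18.6. The isoleucine gene n-TIaat15 on chromosome 13 had 16.7, the glutamine gene n-TQttg2 on chromosome 11 had 14.6 and the arginine gene n-TRtct2 on chromosome 3 had 11.4. The proline gene n-TPcgg1 on chromosome 17 had 10.6, the asparagine gene n-TNgtt14 on chromosome 5 had 8.96 and the histidine gene n-THgtg6 on chromosome 3 had 8.56. The score is the authors' own, its kind is not stated, and it ranks peaks within the list only.

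The peaks at tRNA genes were ordinary members of the list by score. The 17 peaks over a tRNA gene had a median score of 21.7 (8.56 to 40.9), against 21.2 for all 14903 Adnp peaks on chromosomes 1 to 19, whose scores reached 565. Their median width was 488 bp (303 to 680 bp), against 396 bp for all peaks. The 12 peaks within 1 kb but not on a tRNA gene had a median score of 25.8 and a median width of 360 bp. The 2 highest scores among all 29 peaks belonged to such neighbours, with 71.8 at 676 bp from the glycine gene n-TGgcc1 on chromosome 4 and 70.1 at 503 bp from the glycine gene n-TGgcc4 on chromosome 1.

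The nearest genes without overlap shared peaks with overlapped neighbours in several cases. The valine gene n-TVaac7 lay 2 bp from the peak over n-TLaag6, the glutamate gene n-TEctc5 105 bp from the peak over n-TGtcc1 and the methionine gene n-TMcat15 129 bp from the peak over n-TLaag7 and n-TLaag5. Single genes near a peak were the threonine gene n-TTcgt5 on chromosome 16 (61 bp), the arginine gene n-TRccg1 on chromosome 11 (186 bp), the glycine gene n-TGgcc3 on chromosome 1 (206 bp) and the methionine gene n-TMcat11 on chromosome 3 (227 bp), within 1 kb of Ilf2. At the limit, the glutamine gene n-TQctg6 (769 bp) and the alanine gene n-TAagc8 (900 bp) were the last inside 1 kb. The isoleucine gene n-TIaat10 (1004 bp) and the glycine gene n-TGtcc6 (1088 bp) were the first outside.

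The next comparison was between amino acids. Leucine tRNA genes had the highest share within 1 kb, with 7 of 25 genes, or 28% (14.3% to 47.6%), at 6 of their 22 loci, and 6 of these 7 genes were overlapped by a peak. Tryptophan followed with 2 of 8 genes (25%, 7.15% to 59.1%), and by loci it stood higher than leucine, with 28.6% against 27.3%. Next by genes was glycine with 5 of 28 (17.9%, 7.88% to 35.6%). Glutamine and proline had 2 of 15 each, cysteine 3 of 57 (5.26%, 1.81% to 14.4%), arginine 3 of 23, isoleucine and methionine 2 of 16 each and threonine 2 of 17. Alanine, asparagine, aspartate, glutamate, histidine, lysine, serine, tyrosine and valine had 1 gene each, and phenylalanine had none of 7. The intervals of all these classes overlapped.

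At 5 kb the order was different. By genes, glutamine led with 6 of 15 (40%, 19.8% to 64.3%), followed by tryptophan with 3 of 8 (37.5%) and leucine with 9 of 25 (36%). Arginine had 8 of 23 (34.8%) and glycine 9 of 28 (32.1%). Counted as loci, tryptophan stood highest with 42.9%, then tyrosine with 40% and glutamine with 38.5%. Alanine had 1 of 21 (4.76%), cysteine 5 of 57 (8.77%), histidine 1 of 11 (9.09%) and valine 2 of 21 (9.52%). By median distance to the nearest Adnp peak, glutamine genes were closest at 7.64 kb and cysteine genes farthest at 199 kb. The cysteine value is that of 1 stretch of chromosome 6, where 49 of the 57 genes lie, with a median of 206 kb. The 8 cysteine genes elsewhere had a median of 1.18 kb.

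**Figure D3:**
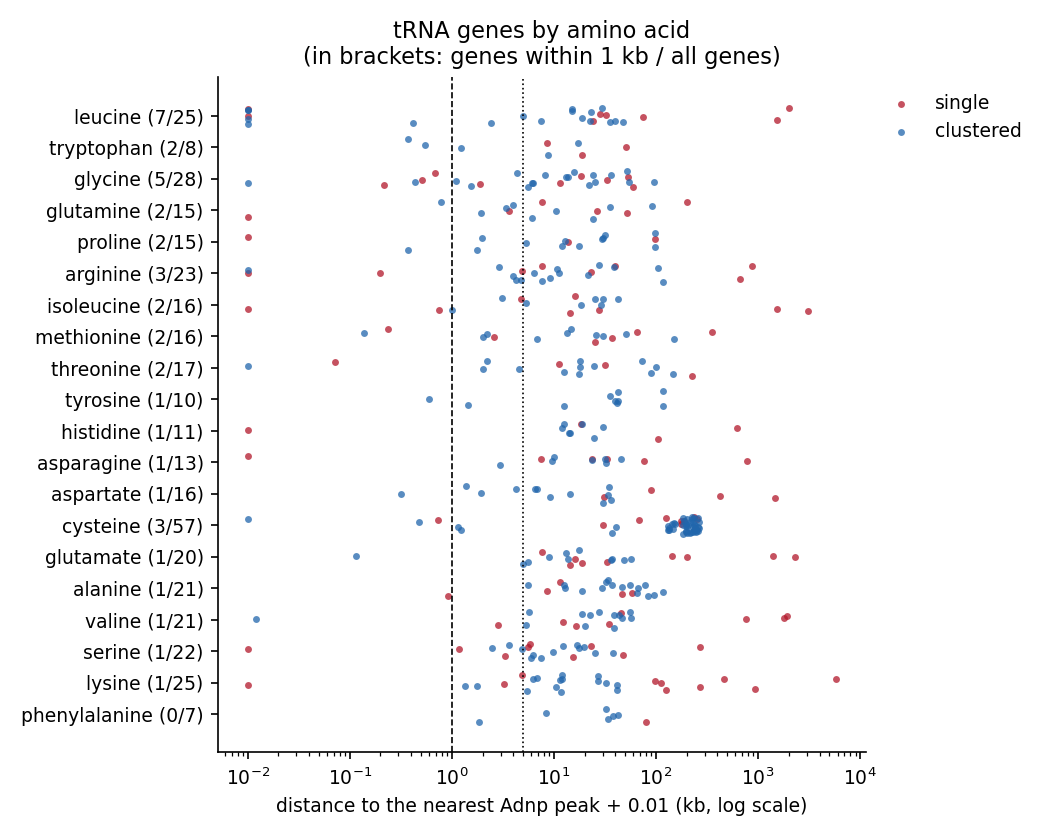
Distance (kb, log scale, with 0.01 kb added) from each of 386 tRNA genes to the nearest Adnp peak, by amino acid, with single genes in red and clustered genes in blue. Dashed and dotted lines mark 1 kb and 5 kb. Leucine genes reach a distance of 0 most often, and cysteine genes, 49 of 57 of them in 1 stretch of chromosome 6, crowd beyond 100 kb.

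Among the 48 anticodon classes, 30 had 5 or more genes, and 21 of these 30 had a gene within 1 kb of an Adnp peak. Leucine genes with anticodon AAG stood highest, with 4 of 5 genes (80%, 37.6% to 96.4%), all 4 overlapped by a peak, at 3 of their 4 loci on chromosomes 7, 11 and 13. With the Adnp peaks at or above the median score alone, the share was 40% (2 of 5 genes). The fifth, n-TLaag8 on chromosome 14, lay 18705 bp from the nearest Adnp peak. Arginine TCT followed with 2 of 5 (40%, 11.8% to 76.9%), both overlapped, glycine GCC with 4 of 14 (28.6%, 11.7% to 54.6%), none overlapped, and tryptophan CCA with 2 of 8. Among smaller classes, 2 of 3 leucine TAG genes lay within 1 kb.

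Leucine CAG had 1 of 10 genes within 1 kb, and leucine CAA and TAA had none of 4 and none of 3. The classes of 5 or more genes with none were arginine ACG and TCG, glutamate TTC, glycine CCC, phenylalanine GAA, proline AGG, serine AGA, threonine AGT and valine CAC. The largest of them was valine CAC, with 11 genes. Leucine AAG was chosen as the highest of 30 classes, and no test was made on it.

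Longer tRNA genes were overlapped more often than short ones. Leucine and serine tRNAs have a long variable arm, and other long tRNA genes can contain an intron. Of 64 tRNA genes of over 75 bp, 10 were overlapped by an Adnp peak (15.6%, 8.71% to 26.4%), against 8 of 322 genes of 70 to 75 bp (2.48%, 1.26% to 4.83%). The 10 were 6 leucine genes, 1 serine gene, 2 arginine TCT genes of 85 and 87 bp and 1 isoleucine AAT gene of 96 bp. Serine genes of this length had 1 of 21 overlapped and tyrosine genes, all 86 bp or longer, none of 10. Within 1 kb the shares were 20.3% (12.3% to 31.7%) and 8.07% (5.57% to 11.6%). Of the overlapped leucine genes, 2 share 1 peak, and no test was made on this split, which was chosen after its values were seen.

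Clustered tRNA genes were set against single ones next. An Adnp peak lay within 1 kb of 20 of 266 clustered genes (7.52%, 4.92% to 11.3%) and of 19 of 120 single genes (15.8%, 10.4% to 23.4%). Overlap was seen for 8 clustered genes (3.01%, 1.53% to 5.82%) and 10 single genes (8.33%, 4.59% to 14.7%). Within 5 kb the shares were 21.1% (16.6% to 26.4%) and 24.2% (17.4% to 32.5%). Counted as loci, 9 of 76 clusters had a gene within 1 kb (11.8%, 6.36% to 21.0%). With the Adnp peaks at or above the median score alone, the 1 kb shares were 6.02% of clustered and 6.67% of single genes, close to each other. With clusters joined at gaps of up to 2 kb, they were 9.05% of 210 clustered and 11.4% of 176 single genes, so the size of this difference depends on the joining gap and on the peaks used. Of the clusters, 3 of 50 with 2 or 3 genes (6.00%) and 6 of 26 with 4 or more (23.1%, 11% to 42.1%) had a gene within 1 kb. A cluster was counted if any of its genes lay within 1 kb, so clusters with more genes count more readily. These 2 shares are thus not shares per gene.

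The largest clusters were mostly without Adnp peaks. The cluster of 15 genes at chr13:21907111-21940995 had no gene within 1 kb, and its nearest peak was 3624 bp away. The cluster of 13 cysteine genes at chr6:48288876-48317586 lay 221818 bp from the nearest Adnp peak, and that of 10 genes at chr13:23425646-23438768, 5 of them for tyrosine, 29814 bp. Of the clusters with 8 genes, the one on chromosome 13 lay 1537 bp and the one on chromosome 19 37499 bp from the nearest peak. On chromosome 6, all 49 cysteine genes lie within 0.385 Mb, and none was closer than 30.5 kb to an Adnp peak. The 8 cysteine genes elsewhere had 3 within 1 kb and 5 within 5 kb. How reads that fit several gene copies were treated is not given. Peaks missing from the clusters above thus cannot be told apart from reads that could not be placed.

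In each of the 4 clusters with 3 or more genes within 1 kb, peaks covered 1 or 2 genes. Peaks over a tRNA gene were 303 to 680 bp wide and these clusters spanned at least 2538 bp. A single peak of such a width could not cover a whole cluster, so the positions below describe only which genes lay under a peak. In the cluster of 7 genes at chr13:21167604-21172942, a peak of 554 bp covered n-TLaag7 and n-TLaag5, while methionine, lysine and glutamine genes and n-TLcaa4 lay outside it, up to 2396 bp away. In the cluster of 5 genes at chr11:69118794-69125248 the peak covered n-TRtct4, with the leucine gene n-TLtag3 403 bp, n-TQctg6 769 bp, the lysine gene n-TKctt27 1338 bp and the glycine gene n-TGgcc5 4348 bp away. In the cluster of 4 genes on chromosome 11 that ends with n-TLaag6, the peak covered this last gene alone, with n-TVaac7, the proline gene n-TPtgg4 (360 bp) and the threonine gene n-TTtgt2 (1997 bp from another peak) outside.

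Copies of a repeated block on chromosome 1 differed in their peaks. There, 3 blocks of 5 genes follow each other at 7628 and 7614 bp, each in the order glutamate CTC, glycine TCC, aspartate GTC, leucine CAG and glycine GCC, with like spacing between genes. In the first block, at chr1:171064164-171066701, all 5 genes lay within 421 bp of an Adnp peak, and the peaks covered n-TGtcc1 and n-TLcag6. In the second block the nearest gene lay 5582 bp from an Adnp peak, and in the last block 13196 bp, in both cases the peak over n-TLcag6. How reads that fit several copies were treated is not given in the sources used here, so peaks missing from these blocks cannot be told apart from reads that could not be placed. The 3 blocks were chosen after their values were seen, and other tRNA genes lie nearby. The glycine gene n-TGgcc4, before the first block, lay 503 bp from an Adnp peak. In the clusters of 4 genes before and after the blocks, the nearest genes lay 4943 bp and 35628 bp from one. Without chromosome 1, 31 of 349 tRNA genes (8.88%) had an Adnp peak within 1 kb.

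**Figure D4:**
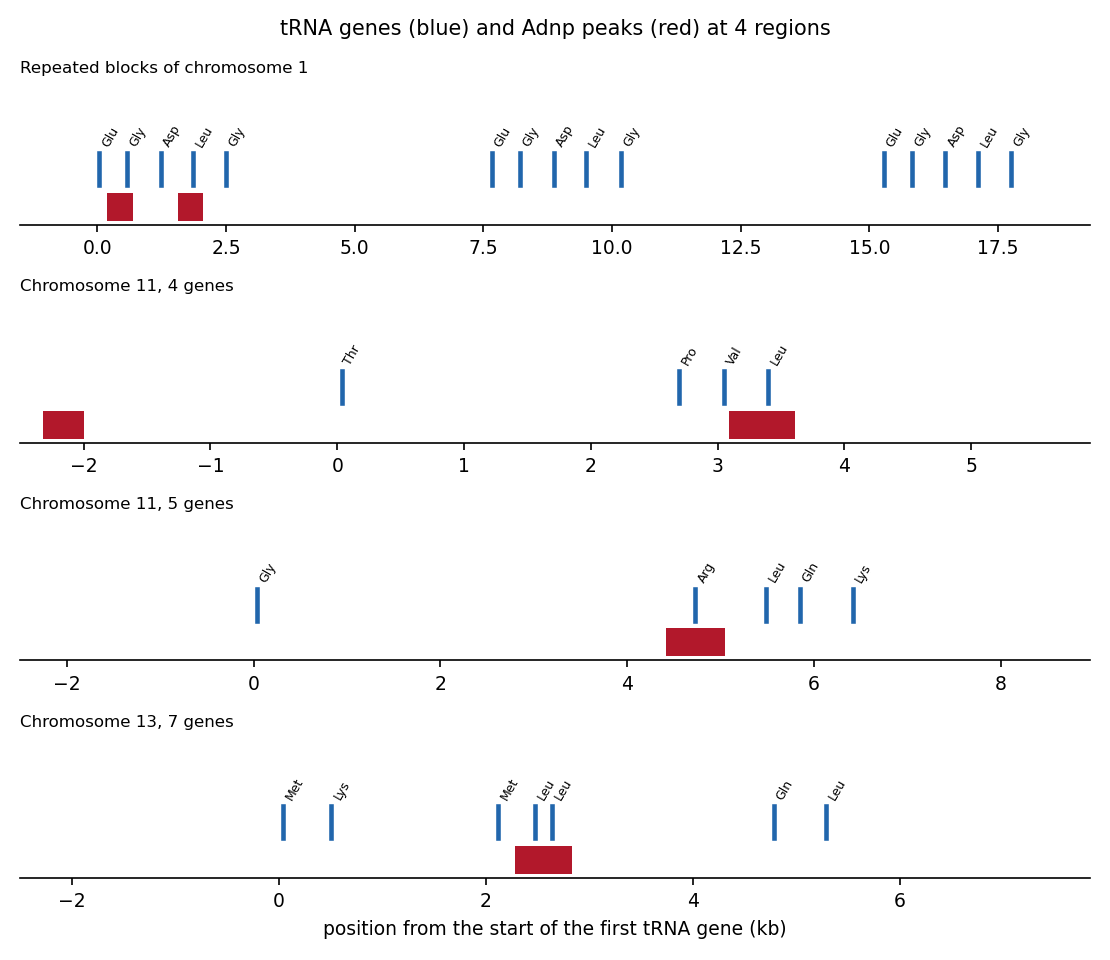
tRNA genes (blue bars, named by amino acid) and Adnp peaks (red boxes) at 4 regions, by position in kb from the start of the first tRNA gene. Each peak box lies under 1 or 2 genes, except the peak 1997 bp from the threonine gene of the cluster of 4, and of the 3 repeated blocks on chromosome 1 the first alone has peaks.

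Chromosomes differed in their share. On chromosome 11, 12 of 47 tRNA genes had an Adnp peak within 1 kb (25.5%) and 27 within 5 kb, and on chromosome 1 it was 8 of 37 (21.6%). On chromosome 13, which holds 105 of the members, 5 had a peak within 1 kb (4.76%), and 104 of these genes lie in 2.37 Mb. Chromosome 6 had none of 53 within 1 kb. Chromosome 11 also had the most Adnp peaks, 1365, against 482 on chromosome 13 and 745 on chromosome 6, and the part of this in the shares was not tested. tRNA genes inside a protein-coding gene had a peak within 1 kb in 5 of 33 cases (15.2%, 6.65% to 30.9%), those outside but within 1 kb of one in 6 of 41 (14.6%, 6.88% to 28.4%), and those farther away in 28 of 312 (8.97%, 6.28% to 12.7%).

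HP1γ peaks without the Adnp motif were not found at tRNA genes. None of the 386 genes overlapped an HP1γ peak, against 1.73% of all genes, and none had one within 1 kb, against 1.98% of all genes, and the count of 0 allows a share of up to 0.777%. At overlap, genes of like length were at a similar level. An HP1γ peak overlapped 0.108% of snRNA genes, 0.088% of miRNA genes and none of 1276 snoRNA genes, and 0.389% of promoter windows. Within 1 kb the classes differed, with 1.08% of snRNA genes (0.589% to 1.98%), 0.0784% of snoRNA genes and 0.176% of miRNA genes. The snRNA share was above the 0.777% that the count of 0 allows, which lies inside the snRNA interval. Of promoter windows 0.676% had one within 1 kb, and 0.179% of the bases lay within 1 kb of one. Within 5 kb there were 3 genes (0.777%, 0.265% to 2.26%), against 2.68% of all genes, 1.32% of promoter windows and 0.73% of the bases. For snRNA, snoRNA and miRNA genes the 5 kb share was 1.95%, 0.705% and 1.06%. By peak centres, 5 HP1γ peaks lay at 1 to 5 kb from a tRNA gene, or 3.25 per Mb, against 0.83 per Mb over chromosomes 1 to 19. The first kb held 0, and the distances beyond 5 kb held 2.74, 1.62 and 0.928 per Mb. At 1 to 5 kb, snRNA, snoRNA and miRNA genes had 1.65, 0.52 and 1.65 per Mb, and promoter windows 0.962. In the first kb, snRNA genes had 4.10 and promoter windows 2.62 per Mb. With 5 peaks, nothing is read from the value at 1 to 5 kb. Of the 3 genes with an HP1γ peak within 5 kb, the isoleucine gene n-TItat14 at chr13:21896938-21897031 lay 3239 bp from a peak. The alanine gene n-TAagc17 at chr13:21234045-21234116 lay 3341 bp and the glutamate gene n-TEttc1 at chr1:34434812-34434883 lay 4364 bp from a peak.

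All 3 are single genes, and their nearest Adnp peaks were 15909 bp, 57898 bp and 143574 bp away. No tRNA gene had peaks of both lists within 5 kb, where 85 had an Adnp peak and 3 an HP1γ peak. The HP1γ list leaves out peaks with the Adnp motif, so distance between the lists may be built in. The same count was not made over all genes, so nothing is read from it. Among the 39 genes with an Adnp peak within 1 kb, the nearest HP1γ peak was 60.2 kb away. The median distance from a tRNA gene to the nearest peak was 24.2 kb for Adnp (quartiles 6.11 and 75.4 kb) and 371 kb for HP1γ (quartiles 96.7 and 730 kb). The lists differ in length, so these distances cannot be compared as binding. For listed promoter windows the medians were 48.5 kb and 448 kb.

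**Figure D5:**
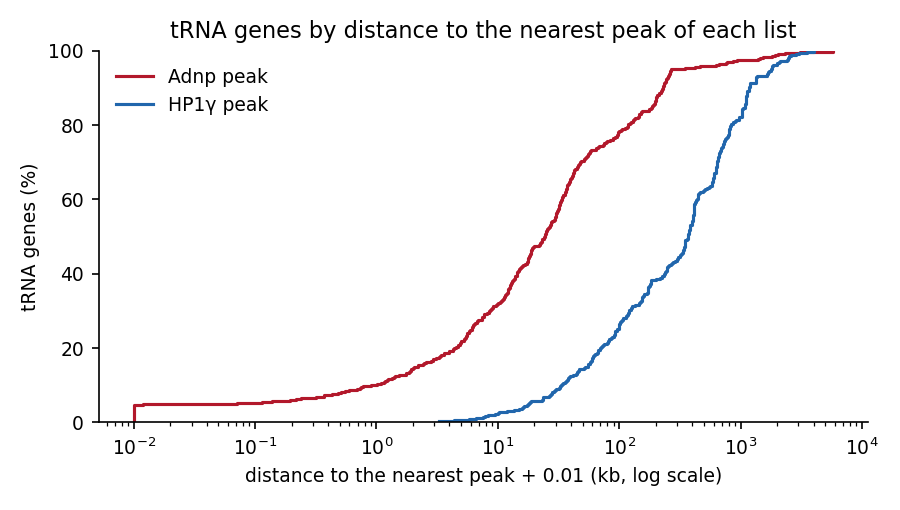
Share of the 386 tRNA genes (%) with a peak at or below each distance (kb, log scale, with 0.01 kb added), for the Adnp list in red and the HP1γ list in blue. The Adnp curve starts at 4.66% and reaches 10.1% at 1 kb, and the HP1γ curve starts at 3239 bp.

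The genes that make and use tRNAs were looked at by list. Of 18 RNA polymerase III subunit genes, 7 lay at most 5 kb, by any part, from an Adnp peak (38.9%), where 30.4% of all protein-coding genes did. Besides Polr3e, peaks overlapped Polr3k, Polr3gl and Crcp, with scores of 22.2, 23.8 and 17.0, and these 4 of 18 stand beside 21.5% of protein-coding genes overlapped. Polr2e, a subunit shared with other polymerases, had a peak at 138 bp with a score of 53.1. None of the 18 had an HP1γ peak within 5 kb, where 4.06% of protein-coding genes did. Of 17 initiation and control genes, 3 had an Adnp peak within 5 kb (17.6%, against the same 30.4%): Gtf3c2, a TFIIIC subunit, Snapc3, a subunit of the snRNA activating complex, and Gtf3a, the 5S rRNA factor, whose peak at 3697 bp had a score of 148. Only Gtf3c2 and Snapc3 were overlapped, and 2 of 17 is a lower share than the 21.5% of protein-coding genes. HP1γ peaks lay 9 bp from the TFIIIC subunit gene Gtf3c3 and 3966 bp from Gtf3a.

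Of 22 tRNA processing genes found, 8 had an Adnp peak within 5 kb (36.4%, against 30.4% of protein-coding genes). Peaks overlapped Pop5, a subunit of RNase P, and Xpot, the tRNA export receptor, and lay 289 bp from Rpp38 and 1088 bp from Rpp25, 2 other RNase P subunit genes. No other gene of this list was overlapped, and 2 of 22 is a lower share than the 21.5% of protein-coding genes. Of 20 cytosolic aminoacyl-tRNA synthetase genes, 9 had an Adnp peak within 5 kb (45%, against 30.4% of protein-coding genes), and Dars, Eprs, Aars, Kars and Lars were overlapped, with scores of 16.5, 16.0, 11.1, 26.1 and 21.2. These 5 of 20 were near the 21.5% of protein-coding genes overlapped. Of 73 other genes transcribed by RNA polymerase III, 64 of them for 5S rRNA, 9 had an Adnp peak within 5 kb (12.3%) and none was overlapped. The 5 kb share was 20.1% for all genes, most of them far longer. For snRNA, snoRNA and miRNA genes, which are short, it was 10.3%, 8.93% and 11.7%. The nearest of the 73 were the 5S rRNA gene n-R5s28 (415 bp), the RNase P RNA gene Rpph1 (792 bp), n-R5s210 (1055 bp) and the signal recognition particle RNA gene Rn7s1 (1123 bp). No test was made on these 5 lists.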

How the data were processed

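The authors deposited 2 peak lists on mm10 (GRCm38), each over pooled replicates. The deposited Adnp list gives each peak a score, which nothing further describes, and the deposited HP1γ list has a score of 0 throughout, so its peaks were not ranked. The submitters' processing notes for the series name MACS2, STAR 2.5.0a, Bowtie 1.0.0, edgeR and bcl2fastq 1.17, without their roles or settings. Peak numbers in the names reach 31188 for Adnp and 2701 for HP1γ, higher than the number of peaks listed.

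Distances ran from any part of a gene to any part of a peak, on chromosomes 1 to 19 from 3 Mb. The gene table gives no strand for tRNA genes, so sides were not told apart. Distance code was tested on simulated data. Named genes were up to 25 tRNA genes by distance to an Adnp peak within 1 kb, those with an HP1γ peak within 5 kb, the 5 largest clusters, genes at the 1 kb limit and up to 4 per list. Chosen after their values were seen were Polr2e, Lars and Gtf3c3 from the lists, n-TGgcc1, n-TGgcc4, n-TLtag3, n-TLaag8 and further clusters, and the split by gene length. The motif was shortened to its printed letters after the sequences were seen. The members and lists were chosen with earlier results of these data known. Python 3.11.15, NumPy 2.4.6, pandas 2.3.3, SciPy 1.17.1 and matplotlib 3.10.9 were used.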

Additional observations from a re-analysis of the deposited data

How the results depend on the processing

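Of 68 alternative values, 59 stayed inside the 95% Wilson interval of the value they replace. This count says little about stability, because some of these values could not differ. For single genes, leaving out the largest cluster and counting loci both kept the same 120 genes. With no HP1γ peak within 1 kb, narrower or stricter HP1γ counts could only be 0. In small classes the interval was wide, so leucine AAG at 40% still lay inside 37.6% to 96.4%. No paired analysis was possible because each list is pooled over replicates, and for the same reason no replicate could be left out. Counting loci in place of genes gave 14.3% with an Adnp peak within 1 kb, and 11.8% for clusters. With the Adnp peaks at or above the median score, which removes about as many peaks as it keeps, the shares were 6.22% within 1 kb and 12.7% within 5 kb for all tRNA genes, 12.0% within 5 kb for clustered genes, and 6.67% and 14.2% for single genes. Leaving out chromosome 11, an alternative added after the data were seen, gave 17.1% within 5 kb. A window of 500 bp in place of overlap gave 8.03%. With loci the highest amino acid class at 1 kb was tryptophan (28.6%, leucine 27.3%), while leucine AAG stayed the highest anticodon class in the 3 alternatives run, at 80%, 75% and 40%, the last with the higher-scoring peaks. No counts or depth are given, so a tRNA gene without a listed peak cannot be called unbound.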

Other observations

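The 17 tRNA genes of chromosome X, which lie outside the members, had no Adnp peak within 5 kb. The nearest was 42.6 kb away and the median distance was 192 kb. Chromosome X holds 106 Adnp peaks and 6 HP1γ peaks, and the nearest HP1γ peak to a tRNA gene there was 9213 kb away.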
